A study of Mus musculus with 4 samples.

Results

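The 38 Hox genes described here were chosen by name, as the members of the Hoxa, Hoxb, Hoxc and Hoxd clusters on a fixed list, and followed in 4 mouse embryonic stem cell (ESC) lines on Agilent one-colour whole-genome arrays. Of the 38 genes, 35 had a probe (45 probes in all among 41174 gene probes), and 25 could be tested, because both WT arrays or both KO arrays read them well above background. The 2 wild-type lines (WT 1, WT 2) carried both alleles of ECAT15-1 (Dppa4) and ECAT15-2 (Dppa2) intact, ECAT15-1 +/+ and ECAT15-2 +/+. The 2 knockout lines (KO 1, KO 2) lacked Dppa2 (ECAT15-2 -/-) and also had 2 copies of a conditional targeted Dppa4 allele (ECAT15-1 CT/CT), which the WT lines did not, so every comparison is between these compound genotypes. WT 1 and KO 1 were derived from blastocysts of mother 1046, and WT 2 and KO 2 from blastocysts of mother 875. Each line is a separate derivation with 1 array, on a mixed background that the labels trace to 129Sv cells, C57/BL6 crosses and Cre or FLPe transgenic mice of unknown background. All 4 lines were kept on gelatin for 3 days with LIF and 15% fetal calf serum.

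Hox genes encode homeodomain transcription factors that specify position along the head-to-tail axis. They lie in 4 clusters, and their order along each cluster matches where and when they are switched on in the embryo: genes with low paralogue numbers act anteriorly and early, genes with high numbers posteriorly and late. In undifferentiated ESCs the clusters are textbook targets of Polycomb repression and are expressed at low levels, and retinoic acid, Wnt and Cdx factors turn them on as cells leave pluripotency. Dppa2 and its partner Dppa4 are chromatin proteins of pluripotent cells that bind promoters carrying both active and Polycomb marks.

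The genotype check and the state of the cells were read first. Dppa2 had log2 signals of 12.09 and 12.05 in WT 1 and WT 2 and of 7.04 and 7.10 in KO 1 and KO 2, so the deleted gene separated the lines as labelled. Dppa4 read 13.38 and 13.55 in the WT lines and 13.94 and 14.05 in the KO lines, so its signal was not lower in the KO lines. Of 8 tested ESC markers, including Sox2 and Esrrb, 8 had a positive KO minus WT difference and 0 were called, with a median log2 difference of 0.77. Over all genes 42.8% had a negative difference, and the median was 0.07. The share of gene probes read well above background ran from 68.4% to 70.3% over the arrays, with 0 saturated spots.

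Promoter sequences of 3 Hoxd genes, Hoxd4, Hoxd9 and Hoxd13, are shown with that of Hoxa7. The Hoxd genes had lower signals in both KO lines and promoters of widely different composition, and Hoxa7 had the brightest Hoxa signals and groups that overlapped. They run from 250 bases before to 50 bases after the annotated start, 5′ to 3′ on the gene's strand, and are taken from RefSeq on build GRCm38.p6; capitals mark the dinucleotide CG. The windows lie at chr2:74721728-74722027 (Hoxd4, plus strand), chr2:74697513-74697812 (Hoxd9, plus strand), chr2:74667975-74668274 (Hoxd13, plus strand) and chr6:52218524-52218823 (Hoxa7, minus strand).
Hoxd4: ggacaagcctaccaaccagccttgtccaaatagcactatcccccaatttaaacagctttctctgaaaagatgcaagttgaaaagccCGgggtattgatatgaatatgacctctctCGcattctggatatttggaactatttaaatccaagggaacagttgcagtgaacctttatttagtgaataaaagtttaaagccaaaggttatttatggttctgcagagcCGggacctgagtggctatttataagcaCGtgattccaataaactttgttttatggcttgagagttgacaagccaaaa
Hoxd9: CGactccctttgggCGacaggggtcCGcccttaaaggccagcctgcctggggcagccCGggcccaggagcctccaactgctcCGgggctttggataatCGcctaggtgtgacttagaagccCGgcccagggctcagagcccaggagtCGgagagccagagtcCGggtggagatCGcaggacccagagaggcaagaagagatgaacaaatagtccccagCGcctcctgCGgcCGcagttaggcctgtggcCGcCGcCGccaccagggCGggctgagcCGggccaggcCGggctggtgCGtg
Hoxd13: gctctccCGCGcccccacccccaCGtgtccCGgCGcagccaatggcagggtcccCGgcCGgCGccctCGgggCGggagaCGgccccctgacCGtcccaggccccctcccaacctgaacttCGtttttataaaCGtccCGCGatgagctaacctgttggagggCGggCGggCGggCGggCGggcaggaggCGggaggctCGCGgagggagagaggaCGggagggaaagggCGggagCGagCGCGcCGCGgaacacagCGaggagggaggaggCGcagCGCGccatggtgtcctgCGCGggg
Hoxa7: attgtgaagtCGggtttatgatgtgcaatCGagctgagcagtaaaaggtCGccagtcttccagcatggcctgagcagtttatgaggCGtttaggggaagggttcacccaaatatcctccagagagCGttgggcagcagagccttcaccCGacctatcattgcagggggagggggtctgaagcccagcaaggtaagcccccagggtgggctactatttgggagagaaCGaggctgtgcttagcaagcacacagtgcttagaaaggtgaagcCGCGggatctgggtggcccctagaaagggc

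The Hoxd4 window held 4 CG dinucleotides, the Hoxa7 window 9, the Hoxd9 window 20 and the Hoxd13 window 37. The table held 24 windows for 22 of the 38 genes, with a median of 14.5 CG dinucleotides per window, against 7 over all 32851 windows. The Hoxd windows shown were chosen for their different composition, so their low and high CG counts are examples and not a result. The lowest and highest counts over the 24 windows were 4 and 45. A total of 10 motifs were searched on both strands. The Cdx-bound form TTTATNG was found in 2 of 24 Hox windows (8.33%) and in 10.9% of all windows. The 2 were Hoxd4 and Hoxb8, and both held it as the narrower form TTTATTG, found in 4.6% of all windows. The nuclear receptor hexamer AGGTCA was in 7 of 24 (29.2%) and in 16.3% of all windows. Its spaced direct repeat (DR5), the classical retinoic acid response element, was in 0 of 24 and in 0.00913% of all windows. This exact string is so rare that 0 of 24 does not set the Hox windows apart. The E-box CACGTG was in 5 of 24 (20.8%) and in 7.15% of all windows. All 5 were among the 10 Hoxd windows. Another 10 of the 24 were Hoxa windows, so the Hoxb and Hoxc clusters were hardly covered. This motif was singled out after the counts were seen. The joint cofactor and Hox form TGATTNAT was in 8.33% of Hox windows and in 3.22% of all. The homeodomain core TAATTA was in 8.33% of Hox windows and in 5.29% of all. The TATA box TATAAA was in 16.7% of Hox windows and in 13.6% of all. The GAGA form GAGAG was in 66.7% of Hox windows and in 62.0% of all, and the GC-rich CCGCC in 66.7% and 48.8%. A match is a string of letters, not a binding site.

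How many Hox genes were measurable in each line was counted first. A gene counted as detected in a line where the scanner software called 1 of its probes well above background. WT 1 had 26 detected Hox genes, WT 2 had 24, KO 1 had 24 and KO 2 had 17. KO 2 therefore stood apart, and the other KO line had the same number as WT 2. By cluster the Hoxd counts differed most between lines: 6 of 9 were detected in WT 1, 6 in WT 2, 4 in KO 1 and 2 in KO 2. The Hoxa genes were detected at 9, 8, 9 and 8 of 10, the Hoxb genes at 8, 7, 7 and 5 of 10, and the Hoxc genes at 3, 3, 4 and 2 of 6. Anterior genes, taken as paralogue groups 1 to 4, numbered 8 in WT 1, 8 in WT 2, 5 in KO 1 and 4 in KO 2 out of 10 with a probe, whereas posterior genes (groups 9 to 13) were at 11, 11, 11 and 8 of 15. Central genes (groups 5 to 8) were at 7, 5, 8 and 5 of 10, with the most in KO 1. These are counts of genes on single arrays, with no test.

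**Figure D1:**
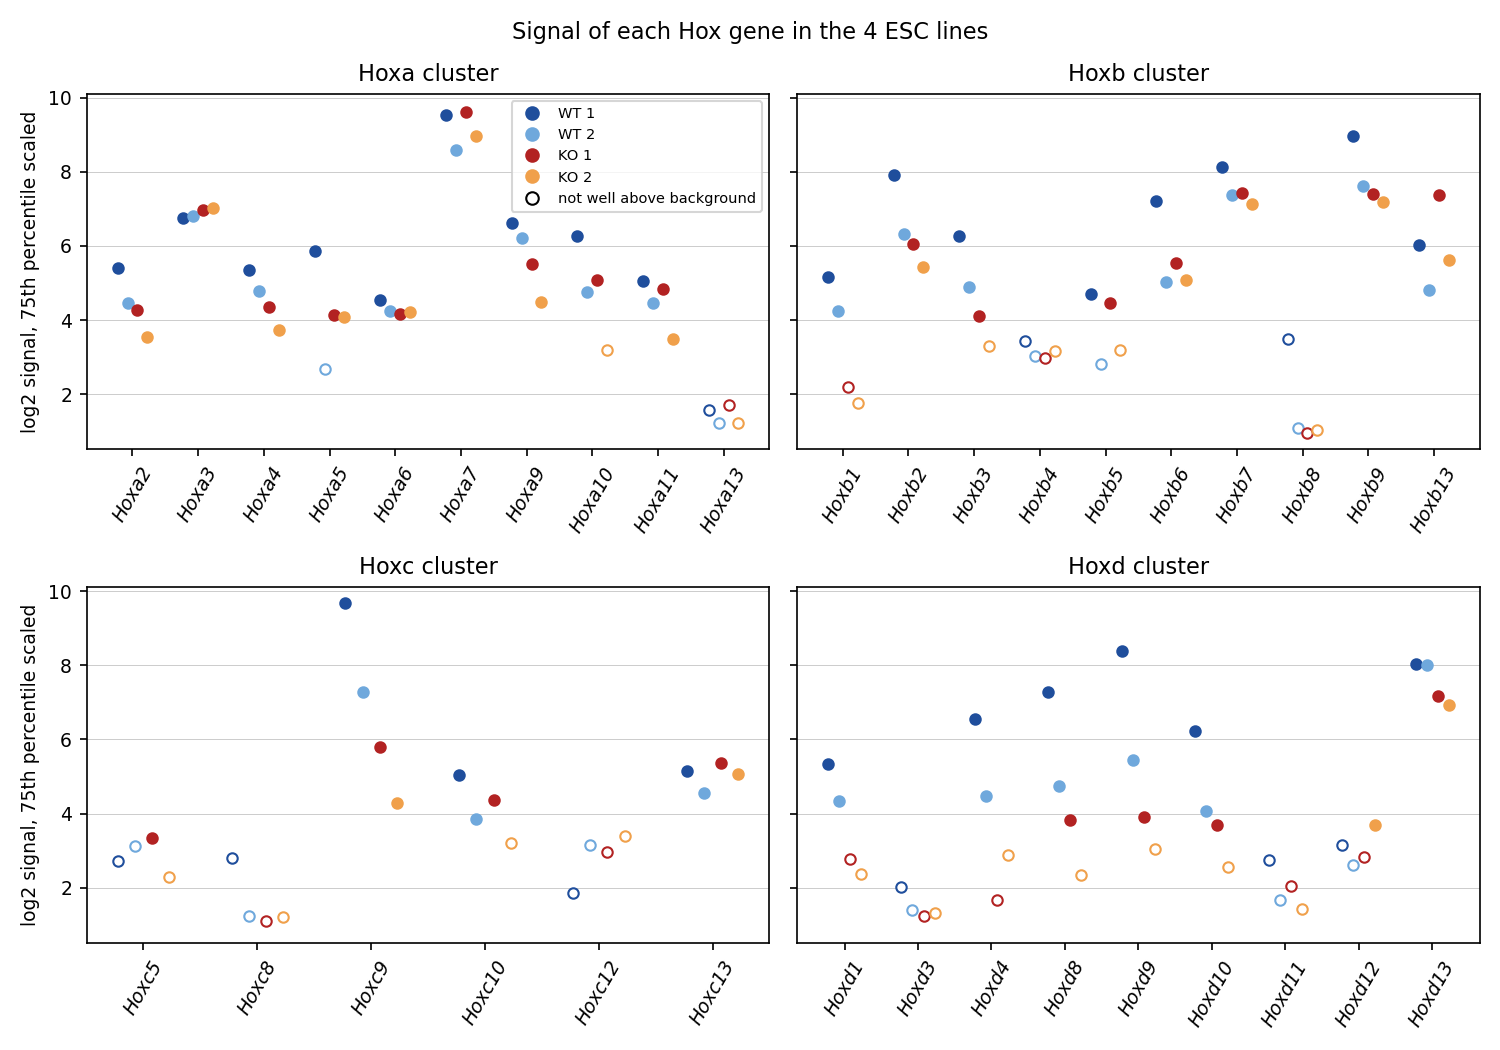
Log2 signal (y axis, scaled to each array's 75th percentile) of the 35 Hox genes with a probe, in paralogue order along each cluster (x axis), with 1 point per line and open points where the probe was not well above background. The dark blue WT 1 points sit highest for most genes, and in the Hoxd panel the KO points of Hoxd1 and Hoxd4 are open in both lines.

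The comparison of genotypes asked which Hox genes differ in lines that lack Dppa2. With limma's moderated test over all 21639 genes, 0 of 25 tested Hox genes passed an adjusted p of 0.05, where 1.87% of all genes did (1.7% lower, 0.171% higher). At an unadjusted p under 0.05, 9 Hox genes were lower and 0 higher in the KO lines, against 12.8% and 10.2% of all genes. The smallest adjusted p among Hox genes was 0.0788, for Hoxb1. The signals of the 2 KO lines both lay below those of the 2 WT lines for 15 of 25 Hox genes (25.7% of all genes) and both above for 1 (35.5%). Within the mothers' pairs, 19 of 25 were lower in the KO line of both pairs (30.8% of all genes), 4 higher in both (44.6%) and 2 opposite (24.6%). At least 2-fold lower in both pairs were 10 (7.09%), and at least 2-fold higher 0 (1.5%). These counts took the signals as measured, also where an array was not well above background. Of the 25, 21 had a negative difference (42.8% of all genes), and the median log2 difference was -1.02, against 0.07 over all tested genes.

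The filter shapes these counts. Of the 25 tested genes, 9 qualified through the WT arrays only and so had to be high there, 1 (Hoxa5) through the KO arrays only, and 15 were well above background on all 4 arrays. Among those 15, the KO lines both lay below the WT lines for 8 genes (23.7% of all genes so measured). In both pairs 10 of the 15 were lower (29% of all such genes) and 2 were at least 2-fold lower (4.79%), and the median was -0.82 against 0.08. With no filter, the 35 genes with a probe had a median of -0.82 and 27 negative differences.

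The Hoxd cluster, which patterns the trunk, limbs and genitalia, had the lowest median difference of the 4 clusters, -2.61 over 6 tested genes. Hoxd9 had log2 signals of 8.39 in WT 1, 5.45 in WT 2, 3.90 in KO 1 and 3.05 in KO 2. WT 1 was thus far above WT 2, and both KO lines lay below WT 2, with KO 2 not well above background. With 1 of 2 KO arrays measured, the difference was -3.44 (SE 1.13, n = 2 per group), with a limma adjusted p of 0.204. Its second probe, for which neither KO array was well above background, gave -3.39.

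Hoxd4, an anterior member active in the hindbrain and neck vertebrae, had log2 signals of 6.56, 4.46, 1.66 and 2.87 in WT 1, WT 2, KO 1 and KO 2. Neither KO array was well above background, so the fall between group means is at least 4.74-fold, and limma gave an adjusted p of 0.169. The WT lines in that mean were 2.10 log2 units apart. Hoxd1, the most anterior Hoxd gene, read 5.34 and 4.34 in the WT lines and 2.76 and 2.36 in the KO lines, where it was again not well above background. This is at least 2.97-fold between group means, with a limma adjusted p of 0.101. For Hoxd1 and Hoxd4 the KO spread is that of background signal.

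Hoxd8, a central member, had log2 signals of 7.29 and 4.75 in WT and of 3.84 and 2.34 in KO lines (difference -2.93, SE 1.09, n = 2 per group, limma adjusted p = 0.232). Hoxd10, which acts in the lumbar cord and limb, read 6.23, 4.08, 3.69 and 2.57 in WT 1, WT 2, KO 1 and KO 2, with a difference of -2.02 (limma adjusted p = 0.282). KO 2 was not well above background for either gene, and in both genes WT 2 lay closer to KO 1 than to WT 1. Hoxd13, the most posterior member and a digit and genital patterning gene, had the narrowest WT spread: it read 8.05 and 8.01 in the WT lines and 7.18 and 6.94 in the KO lines. Its WT lines were nearly equal, and the small difference of -0.97 (SE 0.15, n = 2 per group) gave a limma adjusted p of 0.0826, next to that of Hoxb1 among the Hox genes. Its dimmer probe, not well above background in KO 2, gave -1.08. The other Hoxd members, Hoxd3, Hoxd11 and Hoxd12, were not tested.

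In all, 6 of 6 tested Hoxd genes had both KO lines below both WT lines, where 25.7% of all genes did. Within both mothers' pairs 5 of 6 were at least 2-fold lower, where 7.09% of all genes were. The Hoxd median was -2.61, and -0.86 with normexp background correction. Of the 6, only Hoxd13 was well above background on all 4 arrays, so the filter bears on the other 5. Those 5 were the genes at least 2-fold lower in both pairs. They qualified through the WT arrays only and so had to be high there, which limits what both counts show.

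Among Hoxc genes, 3 of 9 could be tested. Hoxc9, a posterior gene of thoracic segments, had log2 signals of 9.68 in WT 1 and 7.29 in WT 2 against 5.79 in KO 1 and 4.28 in KO 2, all well above background. The difference was -3.45 (SE 1.05, n = 2 per group), or 10.9-fold, with a limma adjusted p of 0.188. Its size depended on the processing: it was -2.26 with normexp at the 75th percentile and -2.10 with normexp and quantiles. Leaving out each line in turn, the difference ran from -4.65 to -2.26. The lines of each genotype were over 1 log2 unit apart, and that spread is in the SE. Hoxc10 read 5.03, 3.84, 4.37 and 3.21 in WT 1, WT 2, KO 1 and KO 2, so the groups overlapped (difference -0.65), with KO 2 not well above background. Hoxc13, a hair and nail gene, read 5.14, 4.56, 5.35 and 5.08 and overlapped as well (difference 0.37, or -0.035 after normexp background correction).

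Among Hoxb genes, 7 of 10 were tested and the median was -0.996. Hoxb1, a hindbrain gene with a retinoic acid response, had log2 signals of 5.17 and 4.24 in the WT lines and 2.19 and 1.77 in the KO lines, where it was not well above background. This is at least 2.71-fold between group means (limma adjusted p = 0.0788). Hoxb3 read 6.27, 4.89, 4.12 and 3.29 in WT 1, WT 2, KO 1 and KO 2 (difference -1.88, SE 0.60, limma adjusted p = 0.2). Its second probe, for which neither KO array was well above background, gave -2.04. The groups did not overlap for these 2 genes, and KO 2 was not well above background on the tested probe of Hoxb3.

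Hoxb9 had log2 signals of 8.97, 7.62, 7.42 and 7.18 in WT 1, WT 2, KO 1 and KO 2, a difference of -0.996 that lay mostly in the high WT 1 value; its second probe gave -1.57. Hoxb7 read 8.14, 7.38, 7.43 and 7.12 (difference -0.48), and there WT 2 and KO 1 were level. Hoxb2 read 7.93, 6.33, 6.05 and 5.44 (difference -1.38). Hoxb6 differed by -1.68 in the pair of mother 1046 and by 0.03 in that of mother 875. Hoxb13, which lies apart from the rest of its cluster, went the other way in both pairs: it read 6.03 and 4.82 in the WT lines and 7.37 and 5.62 in the KO lines, a difference of 1.07 (SE 0.79, n = 2 per group, limma adjusted p = 0.458). WT 1 lay above KO 2, so the groups overlapped.

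The Hoxa cluster had a median of -0.61 over 9 tested genes, which ranged from -1.42 to 0.23. Hoxa7 read 9.54 and 8.59 in the WT lines and 9.62 and 8.96 in the KO lines (difference 0.23, SE 0.44, limma adjusted p = 0.77), and the lines ordered by mother rather than by genotype. Hoxa3 read 6.77, 6.82, 6.97 and 7.03 in WT 1, WT 2, KO 1 and KO 2 on the tested probe, the only Hox gene with both KO lines above both WT lines (difference 0.21). Its second probe, which was well above background in WT 1 alone, gave -1.27, so the probes of Hoxa3 disagree in sign.

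Hoxa9, a leukaemia-associated posterior gene, read 6.63 and 6.21 in the WT lines and 5.50 and 4.50 in the KO lines (difference -1.42, SE 0.42, n = 2 per group, limma adjusted p = 0.182). Hoxa10, a uterine and limb gene, read 6.28, 4.75, 5.08 and 3.19 in WT 1, WT 2, KO 1 and KO 2 (difference -1.38). It was at least 2-fold lower within both pairs although the groups overlapped, and KO 2 was not well above background. Hoxa5 had the widest WT spread of the Hox genes: it read 5.87 in WT 1 and 2.68 in WT 2 against 4.14 and 4.08 in the KO lines. Hoxa2 (-1.03), Hoxa4 (-1.02), Hoxa6 (-0.20, positive under quantile scaling) and Hoxa11 (-0.61) complete the tested Hoxa genes, with limma adjusted p between 0.2 and 0.533.

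**Figure D2:**
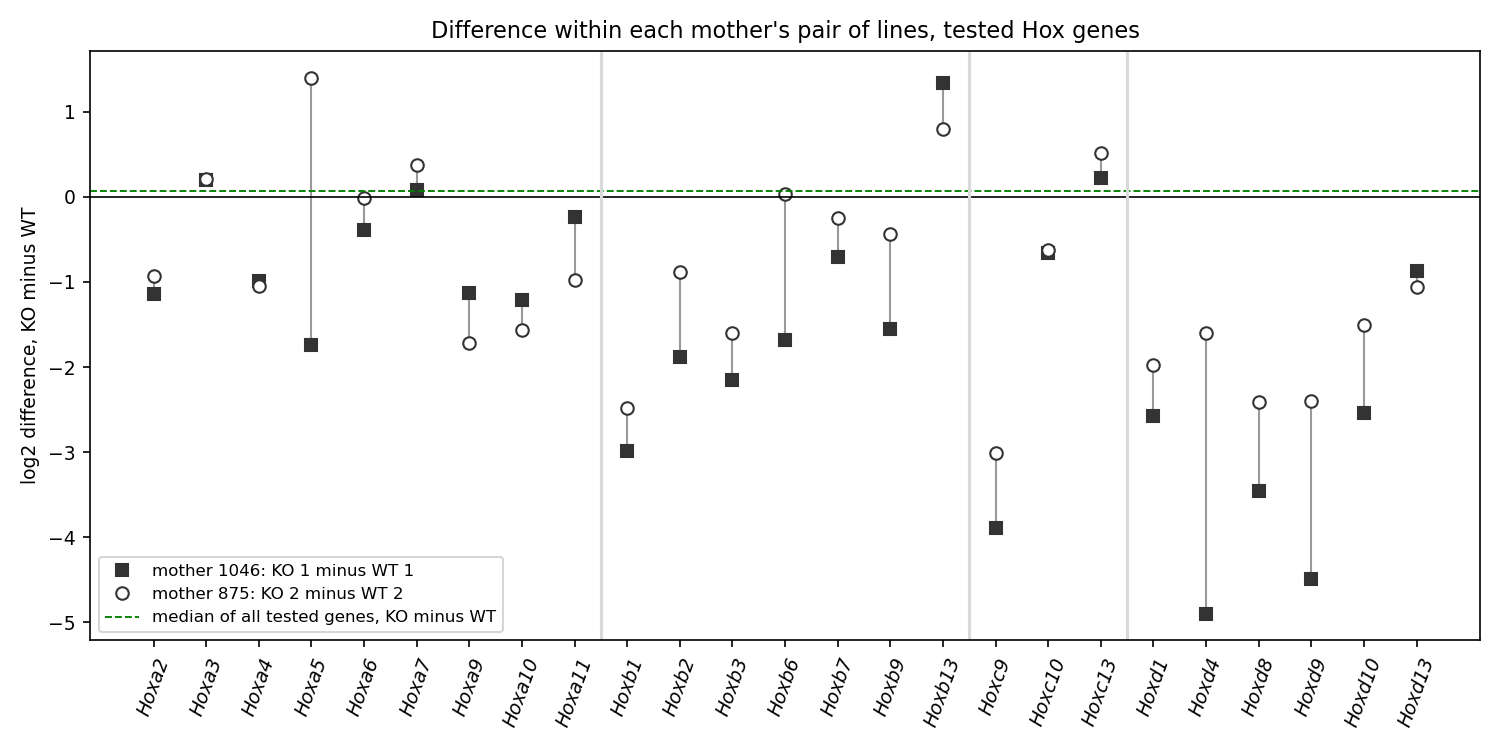
Log2 difference KO minus WT (y axis) for the 25 tested Hox genes (x axis, grouped by cluster), within the pair of mother 1046 (filled squares) and of mother 875 (open circles), with the median of all tested genes as a dashed line. All 6 Hoxd genes lie below 0 in both pairs, Hoxb13 lies above 0 in both, and Hoxa5 has opposite signs.

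Clusters and positions were then set side by side, as descriptions with no test, since the genes of a cluster are not replicates. The median difference was -2.61 for Hoxd, -0.996 for Hoxb, -0.65 for Hoxc (3 genes) and -0.61 for Hoxa. By position it was -1.63 for 8 anterior, -0.34 for 6 central and -0.996 for 11 posterior genes. There was thus no steady change from anterior to posterior, and the central class held Hoxa5, Hoxa6, Hoxa7, Hoxb6 and Hoxb7, with Hoxd8 alone at -2.93. Within the anterior class, the Hoxa genes had a median of -1.02, the Hoxb genes -1.88 and the 2 Hoxd genes -2.76. Within the posterior class the order of clusters was another one, with medians of -2.02 for the 3 Hoxd genes, -1.38 for the 3 Hoxa genes, -0.65 for the 3 Hoxc genes and 0.04 for the 2 Hoxb genes. Among genes well above background on all 4 arrays, the medians were -1.02 for 4 anterior, -0.34 for 4 central and -0.97 for 7 posterior genes. On that subset the cluster order was not kept, with -1.54 for 2 Hoxc genes, -0.97 for Hoxd13 alone, -0.82 for 5 Hoxb genes and -0.61 for 7 Hoxa genes.

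**Figure D3:**
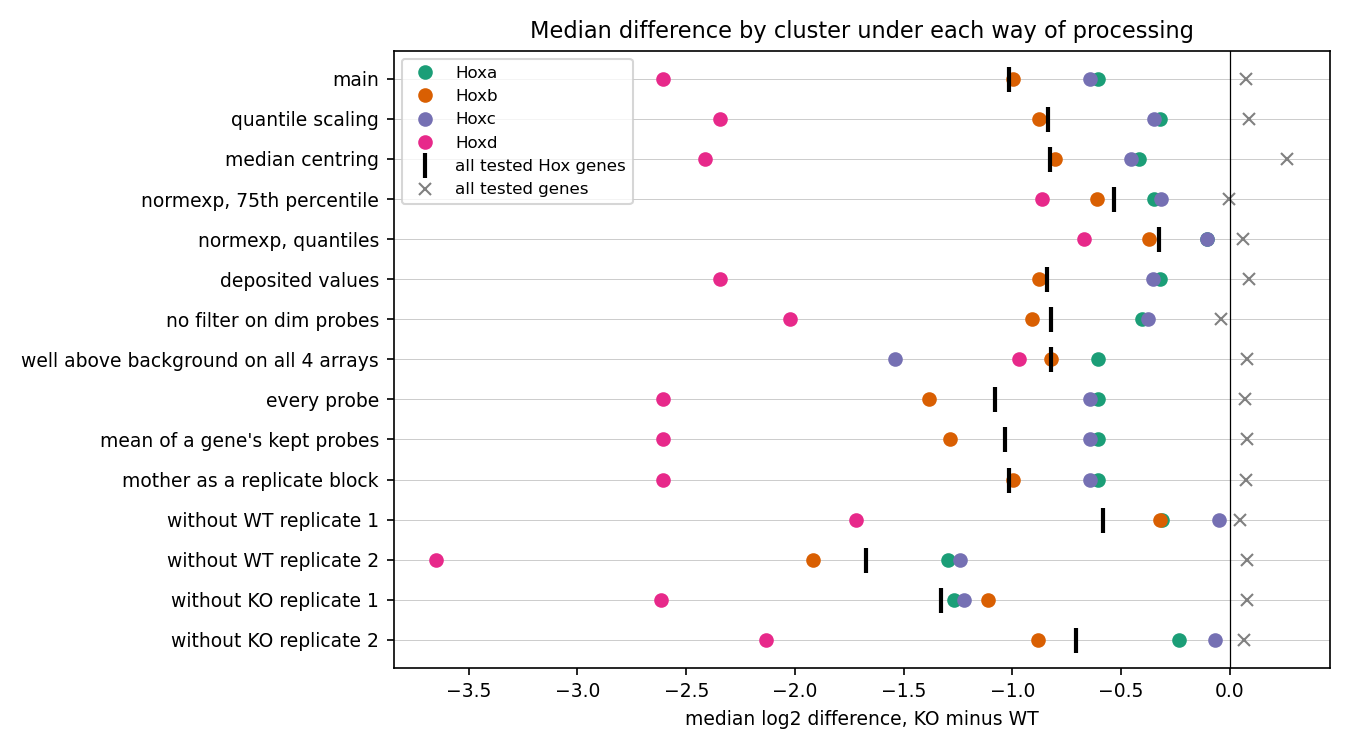
Median log2 difference KO minus WT (x axis) for each Hox cluster, for all tested Hox genes (bar) and for all tested genes (cross), under each way of processing the arrays (y axis). Hoxd is the lowest cluster in each row except the one that asks for detection on all 4 arrays, and the median of all Hox genes lies closest to 0 in the normexp rows.

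The lines also differed within each genotype. WT 1 exceeded WT 2 for 24 of 25 tested Hox genes (47.2% of all genes), with a median log2 difference of 1.19 against -0.02 over all genes, and by at least 2-fold for 13 (3.07% of all genes). KO 1 exceeded KO 2 for 22 of 25 (48.3% of all genes), with a median of 0.62, and by at least 2-fold for 8 (6.22%). Both lines of mother 1046 thus had higher Hox signals than the line of the same genotype from mother 875. The exceptions in the KO lines were Hoxd4, which was lower in KO 1, and Hoxa3 and Hoxa6, which differed by less than 0.1. The order WT 1, WT 2, KO 1, KO 2 from high to low held for 13 of 25 Hox genes and 8.45% of all genes; it was looked for after the values were seen.

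**Figure D4:**
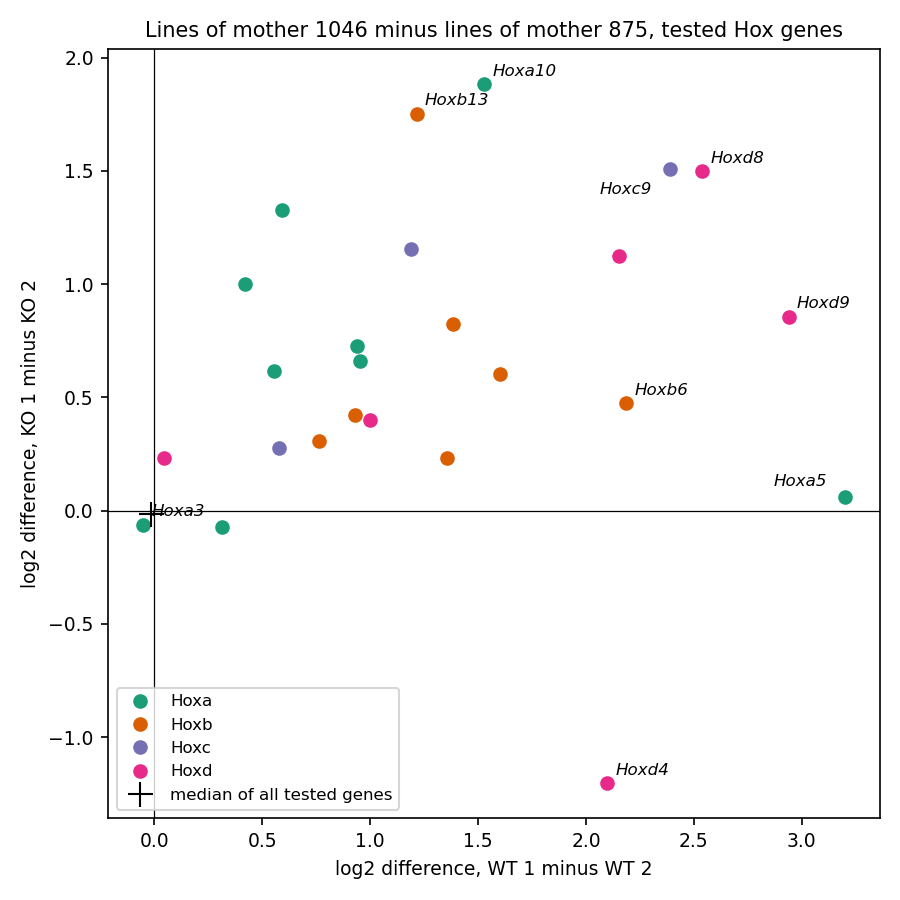
Log2 difference WT 1 minus WT 2 (x axis) against KO 1 minus KO 2 (y axis) for the 25 tested Hox genes, coloured by cluster, with the median of all tested genes as a cross. Most genes lie in the upper right, where the line of mother 1046 is higher in both genotypes; Hoxd4 lies below 0 on the y axis.

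The genotype difference depended on which WT line was used. In the pair of mother 1046 the Hox median was -1.21, and in that of mother 875 it was -0.97; 19 of 25 genes were more negative in the first. Without WT replicate 1 the median was -0.58, and without WT replicate 2 it was -1.67. Both KO lines lay below WT 2 for 15 of 25 genes when WT replicate 1 was left out (34.4% of all genes) and below WT 1 for 21 when WT replicate 2 was left out (32.5%). The count was 19 without KO replicate 1 (37.3%) and 15 without KO replicate 2 (32.6%). The Hoxd median was -1.72 without WT replicate 1, -3.65 without WT replicate 2, -2.62 without KO replicate 1 and -2.13 without KO replicate 2. The Hoxc median was -0.05 without WT replicate 1 and -0.07 without KO replicate 2. With the mother as a block, which the shared mothers warrant, the adjusted p of the 25 Hox genes ran from 0.0952 to 0.923 in limma, and 0% of all genes were called.

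Markers of other cell types were read beside these differences. Of 18 tested fibroblast or feeder markers, 15 were higher in WT 1 than in WT 2, with a median log2 difference of 1.19, the same size as that of the Hox genes. Their summed signal was 16.92 in WT 1, 15.79 in WT 2, 16.27 in KO 1 and 16.23 in KO 2 on the log2 scale, and 0 of 18 were at background on every array. In the KO lines the markers did not follow the Hox genes, with a median of -0.19 for KO 1 minus KO 2. Between genotypes, Mmp2 (difference -3.46, limma adjusted p = 0.0217) and Fbn1 (-2.84, limma adjusted p = 0.0254) fell, and the other 16 did not pass, with a list median of -0.52. Over all genes 0 calls were left when any one of WT replicate 1, WT replicate 2 and KO replicate 2 was dropped, so these and the marker calls that follow rest on all of those lines. With the mother as a block neither passed (limma adjusted p of 0.0871 and 0.0878). The part of such cells in the Hox values was not tested, and fewer cells of a type cannot be told apart from less RNA per cell in these bulk samples.

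Single differentiation markers passed the test in 3 of 4 lists, in both directions. Of 8 early mesoderm markers, Mesp2 fell (difference -2.84, limma adjusted p = 0.0175), 7 did not pass, and the summed signal was 12.08, 11.26, 10.003 and 9.02 in WT 1, WT 2, KO 1 and KO 2, which is the order seen for many Hox genes. Of 8 trophoblast markers, Hand1 fell (difference -4.77, limma adjusted p = 0.0494) and 7 did not pass, among them Krt8 (difference -2.77, limma adjusted p = 0.0503). The trophoblast summed signal was 18.15, 18.54, 16.37 and 15.87. Of 9 primitive endoderm markers, Dab2 fell (-1.77, limma adjusted p = 0.0362) and Lama1 rose (1.66, limma adjusted p = 0.0393), with summed signals between 12.90 and 13.50. Mesp2, Hand1, Dab2 and Lama1 were not called with the mother as a block (limma adjusted p of 0.0871, 0.111, 0.105 and 0.108). Of 7 neural ectoderm markers 0 passed; Nes had a difference of -2.07 and Zic1 of 0.90. The part of mesoderm, trophoblast or endoderm cells in the Hox values was not tested.

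Genes that act upstream of the Hox clusters were read from the same model. Of 4 tested Cdx and ParaHox genes, which directly activate central and posterior Hox genes or are their evolutionary sisters, 0 passed. Cdx2 read 10.90, 9.49, 8.06 and 6.25 in WT 1, WT 2, KO 1 and KO 2, the same order of lines as Hoxc9 and Hoxd9 (difference -3.04, SE 0.85, n = 2 per group, limma adjusted p = 0.172). Gsx1 had a difference of 0.79 (limma adjusted p = 0.158). Of 18 retinoic acid pathway genes, 0 passed, 13 had a negative difference (42.8% of all genes) and the median was -0.47. Aldh1a3, a retinoic acid synthesis enzyme gene, had a difference of -1.67 (limma adjusted p = 0.0524) and Rdh10, which makes its substrate, of -1.46 (limma adjusted p = 0.0538). Their WT lines differed by 0.18 and -0.08, but a small p favours genes whose lines of a genotype lie close together. Over all 18 genes, 9 were higher in WT 1 than in WT 2 (47.2% of all genes), with a median log2 difference of 0.05.

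Of 9 Hox cofactor genes, 0 passed and 6 had a negative difference (42.8% of all genes), with a median of -0.52. Pknox1 had a difference of 0.40 (limma adjusted p = 0.185). The 30 Polycomb genes, which repress Hox clusters, had 0 calls, 21 positive and 9 negative differences and a median of 0.37. Over all genes 42.8% had a negative difference, so most genes were positive, and the median was 0.07. Epop, a partner of the H3K27 methyltransferase complex, and Eed, a core subunit of it, had differences of 0.74 and 0.76 (limma adjusted p of 0.0971 and 0.102). Of 11 genes of trithorax complexes and H3K27 demethylases, which oppose Polycomb, 0 passed and 11 had positive differences, with a median of 0.23; Kmt2c had 1.22 (limma adjusted p = 0.114) and Dpy30 0.35 (0.218).

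A list made up mostly of genes beside the clusters had a median near that of all genes. Of 11 tested genes on this list, 0 passed, 5 had a negative difference (42.8% of all genes) and the median was 0.03. The list also holds the homeobox genes Mnx1 and Gbx2, which lie beside no Hox cluster. Gbx2, on chromosome 1, was among those tested and had a difference of 1.33. Skap2, beside the Hoxa cluster, had a difference of 0.65 (limma adjusted p = 0.118), and Skap1, beside the Hoxb cluster, of -1.16 (limma adjusted p = 0.143). Evx2, next to Hoxd13, read 8.51, 8.57, 8.77 and 8.65 in WT 1, WT 2, KO 1 and KO 2, and Mtx2, on the other side of the Hoxd cluster, read 14.13, 14.06, 13.94 and 13.78. Both thus stayed within 0.4 log2 units over the 4 lines. Evx1, beside the Hoxa cluster, did not: it read 7.35, 6.51, 5.16 and 5.87 (difference -1.42, limma adjusted p = 0.184). Evx1, Evx2, Mtx2 and Gbx2 were picked from the list after their values were seen.

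**Figure D5:**
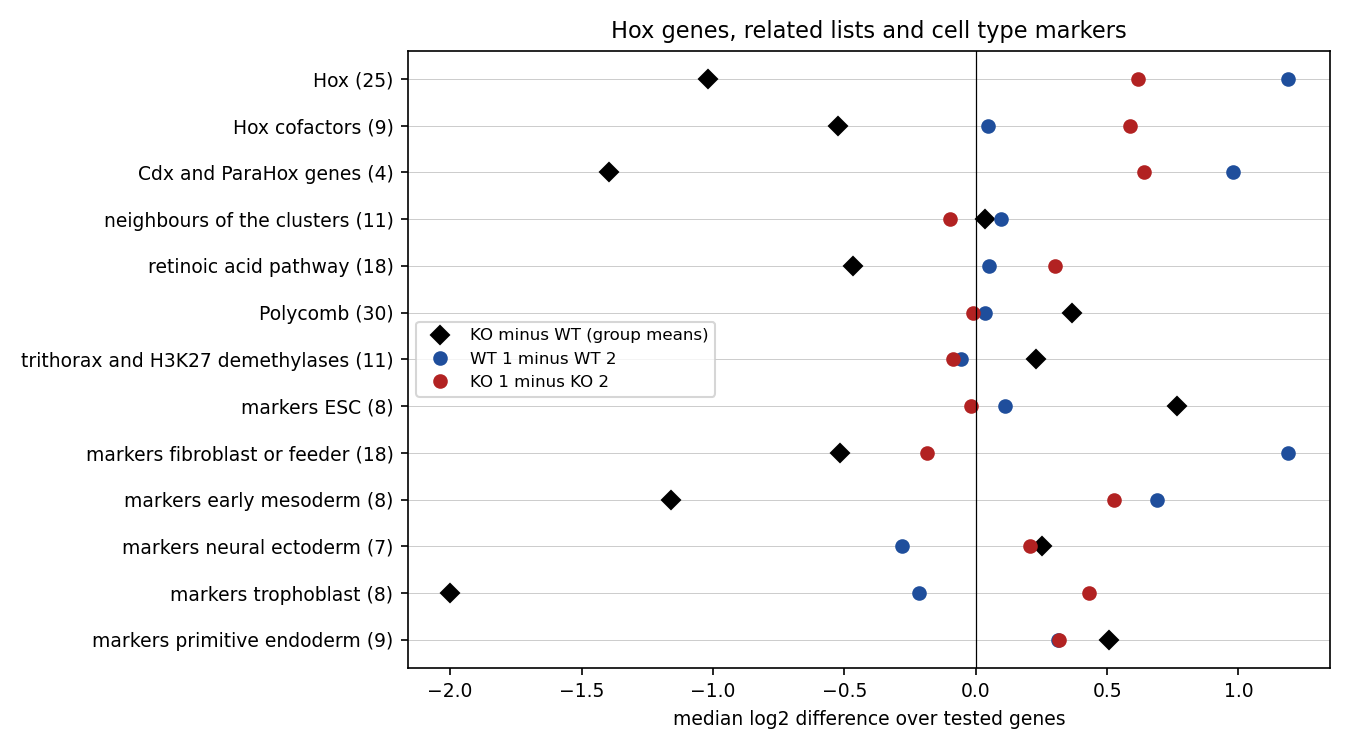
Median log2 difference (x axis) over the tested genes of each list (y axis, number tested in brackets), for KO minus WT group means (diamonds), WT 1 minus WT 2 (blue) and KO 1 minus KO 2 (red). The Hox and fibroblast lists both have a WT 1 minus WT 2 median of 1.19, and their KO 1 minus KO 2 medians are 0.62 and -0.19.

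The remaining 13 listed genes could not be compared. Hoxc4, Hoxc6 and Hoxc11 matched no probe by accession. Hoxa13, Hoxb4, Hoxb8, Hoxc8, Hoxc12, Hoxd3 and Hoxd11 were not well above background on any array, and Hoxb5, Hoxc5 and Hoxd12 on some arrays but not on both of a genotype. Hoxb5 was detected in WT 1 (4.71) and KO 1 (4.46) and not in WT 2 (2.81) or KO 2 (3.20), that is in the lines of mother 1046. The probes of Hoxa13 and of Hoxb8 disagreed in sign at background level.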

How the data were processed

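Total RNA from 4 ESC lines was labelled with Cy3 and hybridised to 1 Agilent array per line. Spot intensity was extracted with Agilent Feature Extraction 10.7.3.1 (protocol GE1_107_Sep09), per the file headers, which give the deposited processed intensity as background-subtracted and detrended, not scaled between arrays; the array annotation is on mm9. The deposited series table holds log2 values; its scale and quantile normalization were read from the values (correlation of 0.9999 to 1.000 with each array's log2 processed intensity, median 6.55 in each column). The series' design text names GeneSpring for the authors' analysis.

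Here, log2 processed signal was centred on each array's 75th percentile and shifted back to the mean percentile. Control spots and outlier-flagged spots were left out, and spots of a probe were averaged. Accessions gave 1 symbol for 26690 of 41174 probes (RefSeq, GRCm38.p6). Probes well above background on both arrays of a genotype were kept, and the brightest stood for its gene, leaving 21639. A probe with several spots was called well above background where most of its spots were. The genotype comparison used lmFit and eBayes from limma 3.58.1 under R 4.3.3, with Benjamini-Hochberg adjustment over all genes at 0.05; the mother was a block in a second fit. The lines of a mother deviated together only weakly: WT 1 minus WT 2 correlated with KO 1 minus KO 2 at 0.19 across genes; the pairing comes from the labels. A change to a level not well above background is "at least N-fold", taking as the dim side the probe's own signal or, where higher, that array's lowest well-detected signal. It is taken between group means, so it does not bound the change within each mother's pair. The fit was tested on simulated data. The files hold median spot signals, so normexp used these and not means.

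The members and gene lists were chosen with earlier results of these data known. Named genes are all members, with signals in every line for the 3 brightest tested members of each cluster, members at least 2-fold different in both pairs and members whose probes disagree, and from each other list the genes called and the 2 with the smallest p; 1 gene of the cofactor list is not reported here. With 4 arrays, their number limits the precision. The lines are separate derivations, so the spread includes differences between derivations.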

Additional observations from a re-analysis of the deposited data

Results flagged for a closer look

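Hoxa5 differed in opposite directions in the mothers' pairs: KO 1 minus WT 1 was -1.73 and KO 2 minus WT 2 was 1.40 on the log2 scale, with 1 line on each side, and the difference between the pairs was not tested. WT 2 was the array on which Hoxa5 was not well above background (2.68), and the KO lines were alike (4.14 and 4.08).

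A pair of untested Hox genes gave a signal in a KO line above that of both WT lines. Hoxc5 was well above background in KO 1 alone, with a log2 signal of 3.33 against 2.71 in WT 1 and 3.13 in WT 2. Hoxd12 was well above background in KO 2 alone, with 3.68 against 3.15 and 2.62. Both lie near the lowest signal that was called well above background on these arrays (3.24 to 3.59).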

How the results depend on the processing

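Of the 25 tested Hox genes, 0 passed an adjusted p of 0.05 in limma under any of the 15 alternatives, and the smallest adjusted p per alternative ran from 0.067 to 0.22. The Hox median stayed negative throughout, from -1.67 to -0.33. With the mother as a replicate block, 0 genes of the whole array were called lower and 0 higher (2788 and 2090 at an unadjusted p under 0.05), and 14 Hox genes were lower and 1 higher at that unadjusted level.

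Over all genes, the 37 higher calls became 58 with median centring, 71 with normexp background correction at the 75th percentile, 77 with an intensity trend and robust prior, 9 with no filter on dim probes and 1 with detection on all 4 arrays, where 63 were lower. Leaving out each line in turn gave 0 to 840 lower and 0 to 85 higher calls; the 0 came from dropping any one of WT replicate 1, WT replicate 2 and KO replicate 2, where 1773 to 2526 genes were lower and 874 to 1374 higher at an unadjusted p under 0.05.

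The Hoxd median was -0.86 and the anterior median -0.54 with normexp at the 75th percentile, and -0.67 and -0.33 with normexp and quantiles. With detection on all 4 arrays the Hoxc median was -1.54 and the Hoxd median -0.97. Leaving out each line in turn, the Hoxa median ran from -1.29 to -0.24, the anterior median from -2.38 to -0.96 and the central median from -1.31 to 0.11.

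Some small differences changed sign, and the cause was not tested. Hoxa5 was 0.11 with quantile scaling, 0.024 with median centring and 0.11 with the deposited values. Hoxa6 was 0.086 with quantile scaling, 0.0046 with normexp and quantiles and 0.084 with the deposited values. Hoxc13 was -0.035 with normexp at the 75th percentile. Leaving out each line in turn, Hoxa5 ran from -1.77 to 1.43, Hoxa7 from -0.25 to 0.71, Hoxa11 from -1.27 to 0.057 and Hoxb6 from -1.92 to 0.27. Signals near background limit 10 of the 25 tested genes, which were not well above background on at least 1 array. The rules for not overlapping under each scaling and with each line left out were chosen after seeing the data. The count of Hox genes with the KO lines below the WT lines was 13 to 21 of 25. The share of all genes ran from 17.4% with median centring to 37.3% without KO replicate 1.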
